A study of Mus musculus with 8 samples.

Results

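The glutathione S-transferases described here are 10 genes, out of 12393 genes with a probe set of their own on the array: Gstm1, Gstm2, Gstm5, Gsta3, Gsta4, Gstp1, Gsto1, Gstt1, Mgst1 and Mgst3. Every probe set annotated with exactly 1 of these symbols was taken, 17 probe sets in all, whatever its signal. The RNA came from TTE3, a Sertoli cell line made from mice with a transgene for temperature-sensitive SV40 large T antigen. The cells were held in 0.2 mM bisphenol A (BPA), a plastics monomer with weak estrogenic activity, and each time of exposure (0, 3, 6 and 12 h) has 2 Affymetrix Mouse Expression Array 430A arrays, 8 in all. All 4 groups carry the same transgene and differ by the hours in BPA alone, as far as the labels say. No array of BPA-free cells at 3, 6 or 12 h was analysed here, so BPA and time in culture cannot be told apart in any change below. Nothing in the labels tells if a pair of arrays came from separate cultures; p-values therefore measure spread between the samples at hand, perhaps technical, and 2 arrays a time limit the precision.

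Glutathione S-transferases join the tripeptide glutathione to electrophilic compounds, which makes them more soluble and marks them for export from the cell. The soluble enzymes fall into classes named by Greek letters (alpha, mu, pi, omega and theta among them), and the microsomal enzymes are unrelated proteins that sit in membranes. Several of these genes are known targets of NRF2, the transcription factor that answers electrophile stress through the antioxidant response element. Glutathione and its transferases are known to be abundant in the testis.

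Sertoli markers were mixed in TTE3. Clu, Kitl, Krt18, Gata4 and Nr5a1 had clear signals at every time, while Amh, Dhh, Cldn11 and Dmrt1 were too dim to be tested and Fshr, the receptor for follicle-stimulating hormone, was just above that limit (65.5 and 75.1 at 12 h, against 57.9 and 40.6 at 0 h). Of 17 Sertoli markers on the array 13 were bright enough to test, and at 12 h 2 were called higher (Sox9 and Gata4) and 2 lower (Clu and Inhbb), where 17.0% of all probe sets were called higher and 16.4% lower. Their summed signal was 8694 and 9544 at 12 h, against 12886 and 12430 at 0 h. Clu alone read 3089 and 3729 at 12 h, against 7747 and 7554 at 0 h, a larger drop than that of the sum. The median log2 change of the 13 tested markers at 12 h was 0.38, so the lower sum is not a fall shared by the markers. Any part of the Clu drop in the changes below was not tested. Of the markers of Leydig, peritubular, germ and blood cells, 9 were tested and 0 were called at 12 h by limma, with 0 at an unadjusted p under 0.05. Star, the Leydig marker that was bright enough to test, read 491 and 436 at 12 h against 456 and 417 at 0 h, and was called lower at 6 h (320 and 267; log2 change -0.56 ± 0.16, limma adjusted p = 0.0222). The other 4 Leydig markers on the array, Cyp11a1, Cyp17a1, Hsd3b1 and Hsd17b3, were below the limit for testing. In bulk RNA, fewer cells of a type and less RNA per cell cannot be told apart.

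Signals below are the authors' normalized intensities, and a change is a difference of mean log2(signal + 7.9) with its standard error (SE). A probe set was tested where its mean over all 8 arrays passed a signal of about 40.7, and it was called where the Benjamini-Hochberg adjusted p of limma's moderated test was under 0.05 over all 15838 probe sets tested. That left 13 of the 17 probe sets, from 8 genes. Both Gsta4 and Gstt1 lost their single probe set, and Mgst1 and Mgst3 each lost the dimmer of a pair.

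The tested transferase probe sets that changed had fallen, and none of the 13 was called higher at 3, 6 or 12 h. At 3 h, 4 of 13 were called lower (3 genes: Gstm1, Gstp1 and Mgst1), against 2.87% of all probe sets tested. At 6 h, 7 of 13 were called lower (4 genes, with Gsta3 added), against 8.84% of all. At 12 h, 9 of 13 were called lower, from Gstm1, Gstm2, Gstm5, Gstp1, Mgst1 and Mgst3, against 16.4% of all. These counts move with single arrays and with the fit: the 9 at 12 h became 5 without the BPA 0 h replicate 2, 6 without the BPA 0 h replicate 1 or the BPA 12 h replicate 2, and 6 with eBayes without the trend, and the 4 at 3 h became 7 without either 6 h array. No probe set of these genes was called higher by limma (0 at an unadjusted p under 0.05 at each time), while 5.91%, 13.0% and 17.0% of all probe sets were called higher at 3, 6 and 12 h. Because 4 of the 13 probe sets read Gstm1, the count was also taken without that gene: 2, 3 and 5 of the other 9 were called lower at 3, 6 and 12 h. The median change over the 13 was -0.75, -1.03 and -0.52 at 3, 6 and 12 h, beside 0.04, 0.04 and 0.03 over all probe sets. Those medians of the 13 count Gstm1 4 times. Among the other 9 probe sets the middle change was -0.39 at 3 h (Gstm2), -0.41 at 6 h and -0.45 at 12 h (both Gstm5).

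By rank alone, both 3 h arrays were below both 0 h arrays for 11 of the 13 probe sets, against 24.2% of all probe sets tested. The count was 12 of 13 at 6 h (26.9% of all) and 11 of 13 at 12 h (32.1% of all). In 0 of 13 were both treated arrays above both 0 h arrays, where 32.0%, 33.3% and 35.6% of all probe sets were at 3, 6 and 12 h. These rank counts, too, describe genes chosen with earlier results known and are not a test. The F test for any change over the 4 times called 5 probe sets: 3 of Gstm1, that of Gstp1 and the bright one of Mgst1, with 29.3% of all probe sets called. How the arrays are scaled sets the balance of all calls. The deposited scaling gave 936 higher and 454 lower calls at 3 h and 2057 and 1400 at 6 h; with arrays at the same median these were 628 and 981 at 3 h and 1486 and 2049 at 6 h. That scaling moved the median change of all probe sets to -0.09 at 3 h and -0.07 at 6 h, shifts that are small beside the falls of Gstm1, Gstp1 and Mgst1.

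**Figure D1:**
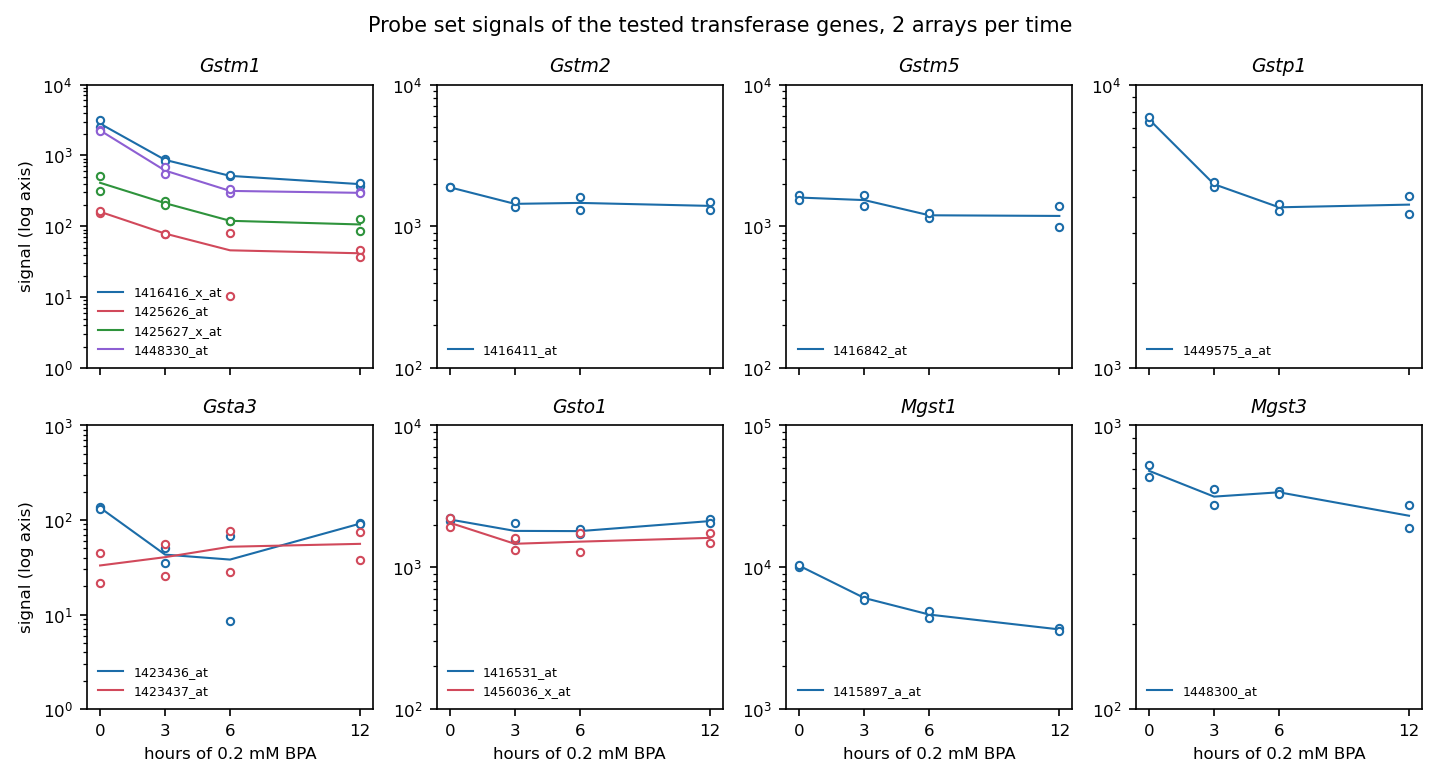
Signal (log axis) of each tested transferase probe set against hours of 0.2 mM BPA; open circles are the 2 arrays of a time and lines join their means. Both arrays of every later time lie below both 0 h arrays for all probe sets drawn but Gstm5 (3 h), Gsto1 1416531_at (12 h) and Gsta3 1423437_at (3, 6 and 12 h).

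Gstm1, a mu-class enzyme, had the largest fall of the 8 tested genes. Its probe set 1448330_at, which carries no mark for cross-hybridization, read 2316 and 2184 at 0 h, 682 and 540.0 at 3 h, 293 and 339 at 6 h, and 303 and 290.3 at 12 h. Both arrays of each later time were far below both 0 h arrays, and the 6 h and 12 h arrays overlapped. Its mean at 12 h was 297 ± 8.77 against 2250.4 ± 93.3 at 0 h (SD, n = 2 each), or 13.2% of the 0 h mean. The log2 change was -1.88 ± 0.15 at 3 h (limma adjusted p = 1.16e-05), -2.81 ± 0.15 at 6 h (adjusted p = 2.31e-07) and -2.89 ± 0.15 at 12 h (adjusted p = 1.12e-07), a fall of 7.42-fold on that scale at 12 h.

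The other 3 Gstm1 probe sets were lower too. Probe set 1416416_x_at, whose ending marks probes that can bind other transcripts, read 376 and 411 at 12 h against 2501 and 3109 at 0 h. Its change was -1.68, -2.42 and -2.80 at 3, 6 and 12 h (SE 0.14 each), close to that of the unmarked probe set at each time. The dimmer 1425627_x_at read 311 and 511 at 0 h, 226 and 198 at 3 h, 120 on both arrays at 6 h, and 126 and 86.0 at 12 h. It was called at 6 h (-1.67 ± 0.26, limma adjusted p = 0.000924) and 12 h (-1.86 ± 0.26, adjusted p = 0.000234) and missed the threshold at 3 h (-0.89 ± 0.26, adjusted p = 0.0577). The dimmest, 1425626_at, read 157 and 164 at 0 h, 79.1 and 78.8 at 3 h, 10.5 and 81.2 at 6 h, and 46.6 and 36.7 at 12 h. Its calls were weak: the change at 6 h was -2.05 ± 0.58 (adjusted p = 0.0258) but -0.92 without the BPA 6 h replicate 1 (adjusted p = 0.133), and the 12 h call (-1.77 ± 0.58, adjusted p = 0.035) held in 10 of 17 settings. It was lost without either 0 h array (-1.80 and -1.74) and without either 12 h array (-1.91 and -1.62).

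Gstm2 and Gstm5, the other mu-class members, changed much less than Gstm1. Gstm2 read 1889 and 1879 at 0 h, 1375 and 1505 at 3 h, 1616 and 1309 at 6 h, and 1491 and 1295 at 12 h. All later arrays were below both 0 h arrays, with no order among 3, 6 and 12 h. The change at 12 h was -0.44 ± 0.13 (limma adjusted p = 0.0224), or 73.9% of the 0 h mean, and those at 3 h (-0.39, adjusted p = 0.0937) and 6 h (-0.37, adjusted p = 0.0634) were not called. Gstm5, a mu-class enzyme known for its expression in testis and brain, read 1656 and 1535 at 0 h, 1396 and 1665 at 3 h, 1145 and 1247 at 6 h, and 985 and 1382 at 12 h. Its 3 h arrays lay on both sides of the 0 h arrays. The 12 h change was -0.45 ± 0.16 (adjusted p = 0.0466) and was lost without the BPA 12 h replicate 1 (-0.20, adjusted p = 0.383). Both calls rest on few arrays: leaving out either 0 h array took the adjusted p to 0.103 or 0.0987 for Gstm2 and to 0.209 or 0.11 for Gstm5, and leaving out the BPA 12 h replicate 2 took it to 0.144 for Gstm2. The 95% interval of the 12 h change ran from -3.21 to -2.57 for Gstm1 1448330_at. It ran from -0.72 to -0.15 for Gstm2 and from -0.79 to -0.10 for Gstm5. The interval of this Gstm1 probe set did not overlap the others, while that of the dimmest, 1425626_at (-3.04 to -0.495), overlapped both. The difference between the genes was not tested.

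Mouse mu-class genes lie side by side on chromosome 3, in the order Gstm5, Gstm7, Gstm6, Gstm3, Gstm2, Gstm1 and Gstm4 in the RefSeq annotation, with Eps8l3 before and Ampd2 after them. Of the cluster genes outside the 10, Gstm7 was called lower at 12 h by 1 of its probe sets (70.5 ± 9.90 at 12 h against 169 ± 5.87 at 0 h, SD, n = 2 each; log2 change -1.18 ± 0.31, limma adjusted p = 0.0107), a call that was lost without either 0 h array or the BPA 12 h replicate 2. Its other probe set had a change of 0.45 (adjusted p = 0.431), so the pair did not give the same direction. Gstm4, next to Gstm1 on its other side, had a 12 h change of 0.13 ± 0.29 (adjusted p = 0.769). Gstm6 had -0.72 (adjusted p = 0.333) and Gstm3 had -0.97 on a probe set marked _s_at (adjusted p = 0.344). The genes outside the cluster had -0.09 for Eps8l3 and -0.03 and -0.13 for the 2 probe sets of Ampd2, with no call. Both direct neighbours of Gstm1, Gstm2 and Gstm4, thus had smaller measured changes than Gstm1, and these differences were not tested.

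**Figure D2:**
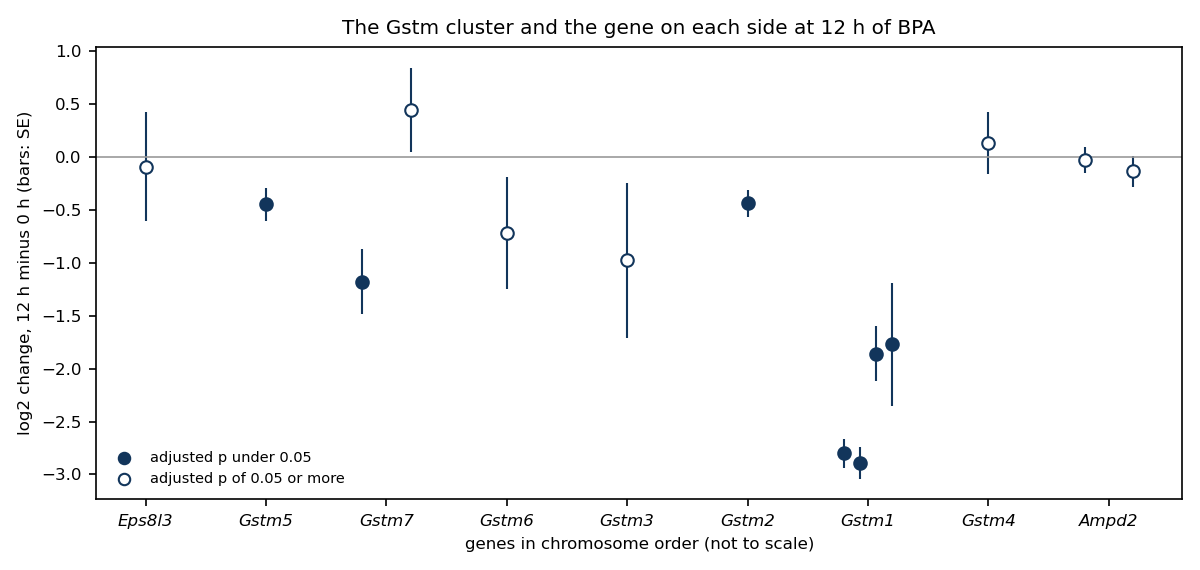
Log2 change at 12 h minus 0 h for every tested probe set of the mu-class cluster and the gene on each side, in chromosome order (not to scale); bars are SE and filled points have an adjusted p under 0.05. The 2 brightest Gstm1 probe sets lie at -2.80 and -2.89, and the points of Gstm2 and Gstm4 lie at -0.44 and 0.13.

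Gstp1, the pi-class enzyme and known as a carcinogen-detoxifying transferase, fell to about 50.1% of its 0 h mean. It read 7383 and 7681 at 0 h, 4359 and 4541 at 3 h, 3792 and 3587 at 6 h, and 4044 and 3498 at 12 h. The 3 h arrays lay between those of 0 h and those of 6 and 12 h, and the 6 and 12 h arrays overlapped. The log2 change was -0.76 ± 0.11 at 3 h (limma adjusted p = 0.00118), -1.03 ± 0.11 at 6 h (adjusted p = 5.85e-05) and -1.0 ± 0.11 at 12 h (adjusted p = 3.59e-05), and it was called in all 19 settings at each time. The probe set ends in _a_at, a mark for probes shared by transcripts of 1 gene; Gstp2, a close copy, had no probe set of its own here, and signal from it could not be told apart. Ndufv1, the neighbour of Gstp1 on chromosome 19, had changes of -0.10, -0.19 and -0.30 at 12 h on its 3 probe sets, none called.

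Mgst1, a microsomal transferase of the endoplasmic reticulum and outer mitochondrial membrane that also reduces lipid peroxides, fell at each time. It read 10016 and 10458 at 0 h, 6273 and 5866 at 3 h, 4898 and 4378 at 6 h, and 3752 and 3541 at 12 h. The arrays of the 4 times did not overlap and went down in time order. The log2 change was -0.75 ± 0.11 (limma adjusted p = 0.00108), -1.14 ± 0.11 (adjusted p = 2.21e-05) and -1.49 ± 0.11 (adjusted p = 1.71e-06) at 3, 6 and 12 h, and was called in all 19 settings. At 12 h the mean was 35.6% of that at 0 h, a fall of 2.8-fold on the log2(signal + 7.9) scale. The steps were not called: 6 h minus 3 h was -0.39 (adjusted p = 0.145) and 12 h minus 6 h was -0.34 (adjusted p = 0.114).

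Mgst3, a microsomal enzyme known to act in leukotriene synthesis and peroxide reduction, read 659 and 725 at 0 h, 597 and 526 at 3 h, 588 and 575 at 6 h, and 524 and 437 at 12 h. All later arrays were below both 0 h arrays. The change was called at 12 h alone (-0.52 ± 0.14, limma adjusted p = 0.0141, 69.5% of the 0 h mean). It was lost without the BPA 0 h replicate 2 (-0.45, adjusted p = 0.111) and without the BPA 12 h replicate 2 (-0.39, adjusted p = 0.106).

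Gsto1, the omega-class enzyme that reduces dehydroascorbate, was read by a pair of probe sets, neither of them called at 3, 6 or 12 h. Probe set 1416531_at read 2130 and 2216 at 0 h, 1547 and 2064 at 3 h, 1722 and 1876 at 6 h, and 2184 and 2049 at 12 h. The arrays of 3 and 6 h were lower than both 0 h arrays, and those of 12 h overlapped them. Its change at 12 h was -0.04 ± 0.14, with a 95% interval from -0.34 to 0.26, which excludes a fall of the size measured for Gstp1 or Mgst1. Probe set 1456036_x_at had -0.49, -0.45 and -0.35 at 3, 6 and 12 h (limma adjusted p = 0.0848, 0.0661 and 0.116), with all later arrays below both 0 h arrays. It was called in some other settings, among them arrays at the same median at 3 h (adjusted p = 0.0244) and 6 h (adjusted p = 0.0197) and the replicate block at all 3 times (adjusted p = 0.0106, 0.0078 and 0.0202). The omega-class pair thus gave a change near 0 and one near -0.35 at 12 h, and the difference was not tested.

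Gsta3, an alpha-class enzyme known to protect mice against aflatoxin, was dim in these cells. Probe set 1423436_at read 138 and 132 at 0 h, 35.2 and 50.9 at 3 h, 8.50 and 67.8 at 6 h, and 92.7 and 90.4 at 12 h. It was lower at every later time, with both arrays below both 0 h arrays, and the lowest array was the BPA 6 h replicate 1. The 6 h change of -2.02 ± 0.58 (limma adjusted p = 0.0275) was -0.92 without that array (adjusted p = 0.149), and those at 3 h (-1.50, adjusted p = 0.144) and 12 h (-0.52, adjusted p = 0.538) were not called. Probe set 1423437_at, just above the limit for testing, read 44.7 and 21.4 at 0 h and 74.6 and 37.3 at 12 h; its changes were 0.23, 0.49 and 0.64 (SE 0.61 each), with no call, and were the only positive ones among the 13. The arrays of the 2 times overlap, so no direction is read from it. On the same BPA 6 h replicate 1 array, the Gstm1 probe set 1425626_at and the Gstm3 probe set were also low, at 10.5 and 8.40, against 81.2 and 95.9 on the BPA 6 h replicate 2.

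**Figure D3:**
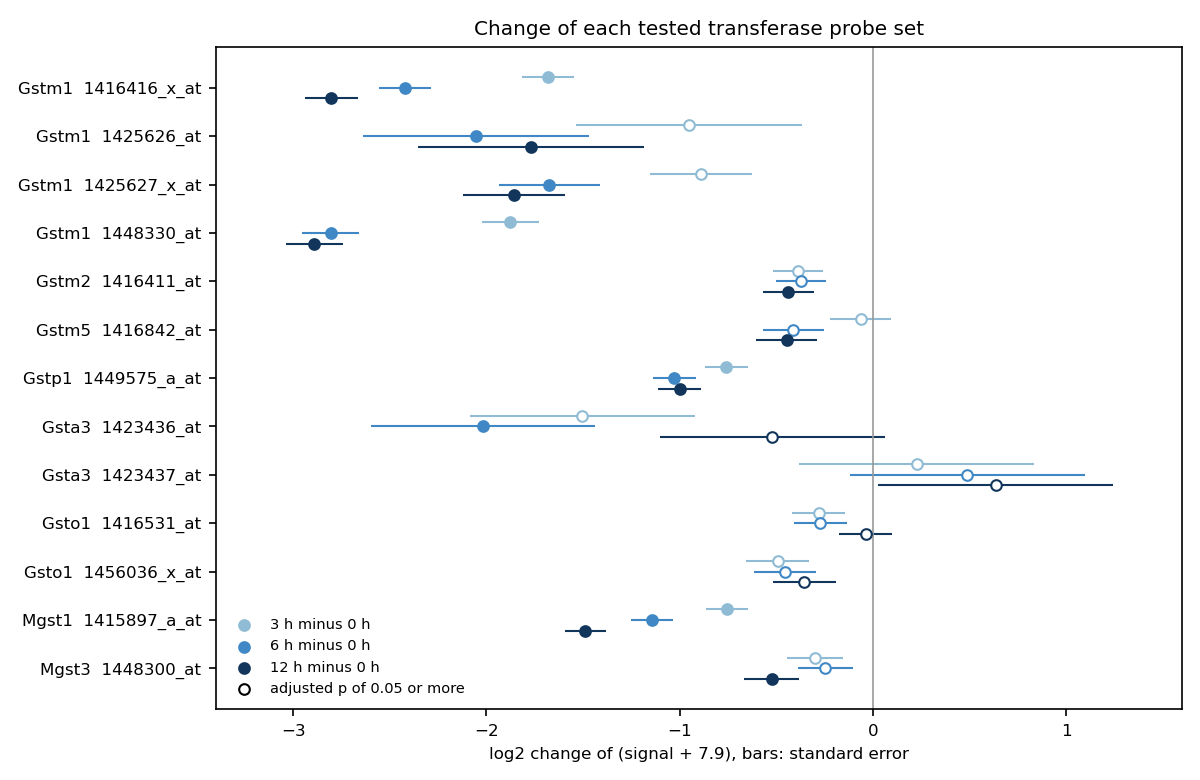
Log2 change of each tested transferase probe set at 3, 6 and 12 h minus 0 h; bars are SE, filled points have an adjusted p under 0.05 and open points do not. All but the second Gsta3 probe set lie at or below 0, and the Gstm1 probe sets 1416416_x_at and 1448330_at reach -2.80 and -2.89 at 12 h.

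The later times were also compared with each other. At 6 h against 3 h, 2 of 13 probe sets were called lower, both of Gstm1, beside 0.48% of all probe sets, and 0 higher (0 at an unadjusted p under 0.05, limma), beside 0.492% of all. Gstm1 1448330_at changed by -0.93 ± 0.15 (limma adjusted p = 0.0124) and 1416416_x_at by -0.74 ± 0.14 (adjusted p = 0.0232). Both calls rested on single arrays. Without the BPA 3 h replicate 1 they were -0.76 (adjusted p = 0.143) and -0.70 (adjusted p = 0.193), without the BPA 6 h replicate 1 they were -0.83 (adjusted p = 0.0627) and -0.72 (adjusted p = 0.0857), and without the BPA 3 h replicate 2 the second was -0.78 (adjusted p = 0.135). At 12 h against 6 h limma called 0 of 13 members either way, where 2.41% of all were called lower and 0.568% higher. At an unadjusted p under 0.05, 2 were lower (Gstm1 1416416_x_at and Mgst1) and 1 higher (Gsta3 1423436_at). Gstm1 1448330_at changed by -0.09 in that step, with a 95% interval from -0.41 to 0.24, and Gstp1 by 0.03 with an interval from -0.21 to 0.27.

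The 5 genes whose course over the 6 later arrays was most like that of Gstm1 1448330_at, by root mean square difference of log2 change from the 0 h mean, were S100a4, Rsrp1, Serpinb1a, Gpx8 and Rnaseh2c. S100a4, a calcium-binding protein, was nearest (difference 0.23), with changes of -1.64, -2.58 and -2.83 at 3, 6 and 12 h. Gpx8, a glutathione peroxidase of the endoplasmic reticulum, had -1.31, -2.22 and -2.85 (difference 0.49), and read 160 and 197 at 12 h against 1341 and 1316 at 0 h. Serpinb1a, a protease inhibitor (difference 0.48), averaged 14.1 at 12 h against 194 at 0 h; the 12 h signal is under the limit for testing, so the size of its change depends on the offset and its rank is uncertain. For Gsta3 1423437_at, the uncalled probe set with the largest positive change, the nearest were Ptgdr, Tmem38b, Thrb, Ntng1 and Riok3, at 0.19 to 0.25, all of them dim at 12 h (signals of 53.4 to 75.9).

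RefSeq (mouse build GRCm38.p6) gave the 200 bases before the start for 9 of the 10 genes, and 5 outermost windows are printed to set the falling genes beside each other: Gstm1, Gstm2 and Gstm5 share a cluster and differ in size of fall, and Gstp1 and Mgst1 were called at every time. Capitals mark every match found on either strand to GCGTG (the core of the xenobiotic response element), TGACNNNGC (antioxidant response element core), TGANTCA (the AP-1 site) and TGATGNAA (the element of C/EBP and ATF factors). Each is 5' to 3' on the strand of its gene. Gstm1 is chr3:108017974-108018173 (minus strand), Gstm2 chr3:107986421-107986620 (minus), Gstm5 chr3:107895654-107895853 (plus), Gstp1 chr19:4037913-4038112 (minus) and Mgst1 chr6:138140327-138140526 (plus).
Gstm1: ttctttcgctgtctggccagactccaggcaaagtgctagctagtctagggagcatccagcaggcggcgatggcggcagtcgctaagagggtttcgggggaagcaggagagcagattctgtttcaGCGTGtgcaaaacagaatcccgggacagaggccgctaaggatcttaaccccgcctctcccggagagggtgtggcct
Gstm2: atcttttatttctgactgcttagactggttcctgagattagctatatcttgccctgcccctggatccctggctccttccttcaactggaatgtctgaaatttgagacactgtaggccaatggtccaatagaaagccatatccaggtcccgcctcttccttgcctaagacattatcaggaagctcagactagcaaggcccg
Gstm5: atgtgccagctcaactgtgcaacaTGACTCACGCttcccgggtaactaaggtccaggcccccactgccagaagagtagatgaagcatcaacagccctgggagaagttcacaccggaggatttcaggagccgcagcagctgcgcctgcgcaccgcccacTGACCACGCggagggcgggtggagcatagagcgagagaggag
Gstp1: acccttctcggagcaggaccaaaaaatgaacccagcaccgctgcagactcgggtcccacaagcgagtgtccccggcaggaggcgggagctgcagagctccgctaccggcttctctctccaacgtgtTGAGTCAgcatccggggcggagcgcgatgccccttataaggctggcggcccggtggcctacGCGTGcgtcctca
Mgst1: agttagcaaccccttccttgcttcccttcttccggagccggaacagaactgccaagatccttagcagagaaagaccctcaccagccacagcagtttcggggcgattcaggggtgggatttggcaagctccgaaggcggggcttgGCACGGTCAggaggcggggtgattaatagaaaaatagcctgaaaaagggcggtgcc
The antioxidant element core, held by 8.60% of 32851 such windows of all genes, was found in Gstm5 at -42 from the start and in Mgst1 at -56 (reverse strand), and it was also in the window of Gsta3. The xenobiotic element core, held by 24.7% of all windows, was found in Gstm1 at -76, Gstp1 at -13, Mgst3 at -22 and in Gstm5 at -171 and -38 (both reverse strand). The AP-1 letters (5.48% of all) were in Gstp1 at -74 and Gstm5 at -176. In Gstm5 the AP-1 match overlaps a xenobiotic core match, and the antioxidant core overlaps the other. The windows of Gstm2, Gsto1 and Gstt1 held none of these letters, and the C/EBP and ATF element (2.87% of all) was in none of the members' windows. Gstm1 and Mgst1 each had another window, at a start that is not the outermost, with 0 matches. The windows of Gsta3 and Gstt1 were also not at the outermost start. The matches are descriptions of letters; at 12 h, called genes (Gstm1 and Gstm2) and uncalled ones (Gsta3 and Gsto1) alike included a window with a match and one without.

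The rest of the glutathione system was taken as lists of genes. Of 10 tested further transferases, limma called 0 higher (0 at an unadjusted p under 0.05) and 2 lower at 12 h, beside 17.0% and 16.4% of all probe sets. The 2 were Gstm7 (above) and Gstk1, a kappa-class mitochondrial enzyme, and the median change of the 10 was -0.66. Several of the 10 were dim, with a wide spread (SE 0.53 for Gstm6 and 0.73 for Gstm3), so this median is imprecise. At 3 and 6 h limma called 0 of the 10 either way (at an unadjusted p under 0.05, 0 at 3 h and 1 lower at 6 h). Of all probe sets, 2.87% and 8.84% were called lower at 3 and 6 h, and 5.91% and 13.0% higher. Gstk1 read 9.6 and 28.4 at 12 h against 102 and 92.3 at 0 h, and its change was -2.06 ± 0.48 (limma adjusted p = 0.00601); without the BPA 0 h replicate 1 it was -1.99 (adjusted p = 0.0533), and its 12 h signals are near background. In the list of glutathione synthesis and breakdown, 8 of 15 tested were called higher and 1 lower at 12 h, with 17.0% and 16.4% of all probe sets. The list also holds amino acid transporters, Slc7a11 and Slc3a2 among those called higher, so its counts are not those of enzymes alone. Chac1, which degrades glutathione, read 4550 and 4173 at 12 h against 305 and 279.7 at 0 h, a change of 3.86 ± 0.13 (adjusted p = 7.3e-09). Slc7a11, the cystine importer, read 369 and 331 at 12 h against 18.7 and 55.8 at 0 h. Its change of 3.12 ± 0.38 is set against dim 0 h signals and was 2.49 without the BPA 0 h replicate 1 and 3.75 without the BPA 0 h replicate 2. Slc3a2, its partner subunit, changed by 2.39 ± 0.12, and Ggct, which acts on gamma-glutamyl peptides, by 1.58 ± 0.15. Cth, which makes cysteine from cystathionine, changed by 1.26 ± 0.31. Gclc, the catalytic subunit of the rate-limiting ligase of glutathione synthesis, changed by 0.46 ± 0.14 (adjusted p = 0.0212), while its partner Gclm (0.45 ± 0.17, adjusted p = 0.063) and Gss (0.31 ± 0.19, adjusted p = 0.232) were not called. Gsr, which reduces oxidized glutathione, fell by 0.49 ± 0.13 (adjusted p = 0.0141).

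Of 9 tested peroxidases and other glutathione users, 2 were called higher and 4 lower at 12 h, beside 17.0% and 16.4% of all probe sets. Gpx8 fell by 2.85 ± 0.15 (limma adjusted p = 1.21e-07), and Glrx, Txndc12 and Gpx4 fell by 0.85, 0.64 and 0.48. Glrx2, a mitochondrial glutaredoxin, rose by 0.56. The calls of Gclc, Gsr, Cth, Gpx4, Glrx, Glrx2 and Acy1 held in 15 to 17 of 18 or 19 settings. Of 7 tested genes of conjugate export and processing 0 were called higher (limma, 0 at an unadjusted p under 0.05) and 2 lower, Abcc5, an export pump of the ABC family (-0.91 ± 0.13, adjusted p = 0.000261), and Acy1 (-0.70 ± 0.21, adjusted p = 0.0239), beside the same shares of all. Of 20 tested genes of NRF2 and its other targets, 6 were called higher and 6 lower at 12 h, again beside 17.0% and 16.4% of all probe sets, and the median change was -0.02. Nfe2l2, which encodes NRF2, was called at 3 h (0.48, adjusted p = 0.0247) and not at 12 h (0.16, adjusted p = 0.328). The list holds regulators as well as targets, so its counts and median are not those of targets alone. Hmox1, the stress-induced heme oxygenase, rose by 2.53 ± 0.18 and Maff, a small MAF partner of NRF2, by 2.72 ± 0.14 at 12 h. Of the other regulators, Mafg rose by 1.27 ± 0.15 (adjusted p = 6.18e-05) and Bach1 fell by 1.17 ± 0.13 (adjusted p = 3.26e-05). Ephx1, the microsomal epoxide hydrolase, fell by 1.41 ± 0.11, and Nqo1, a classical NRF2 target, had -0.20 ± 0.17 (adjusted p = 0.407).

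**Figure D4:**
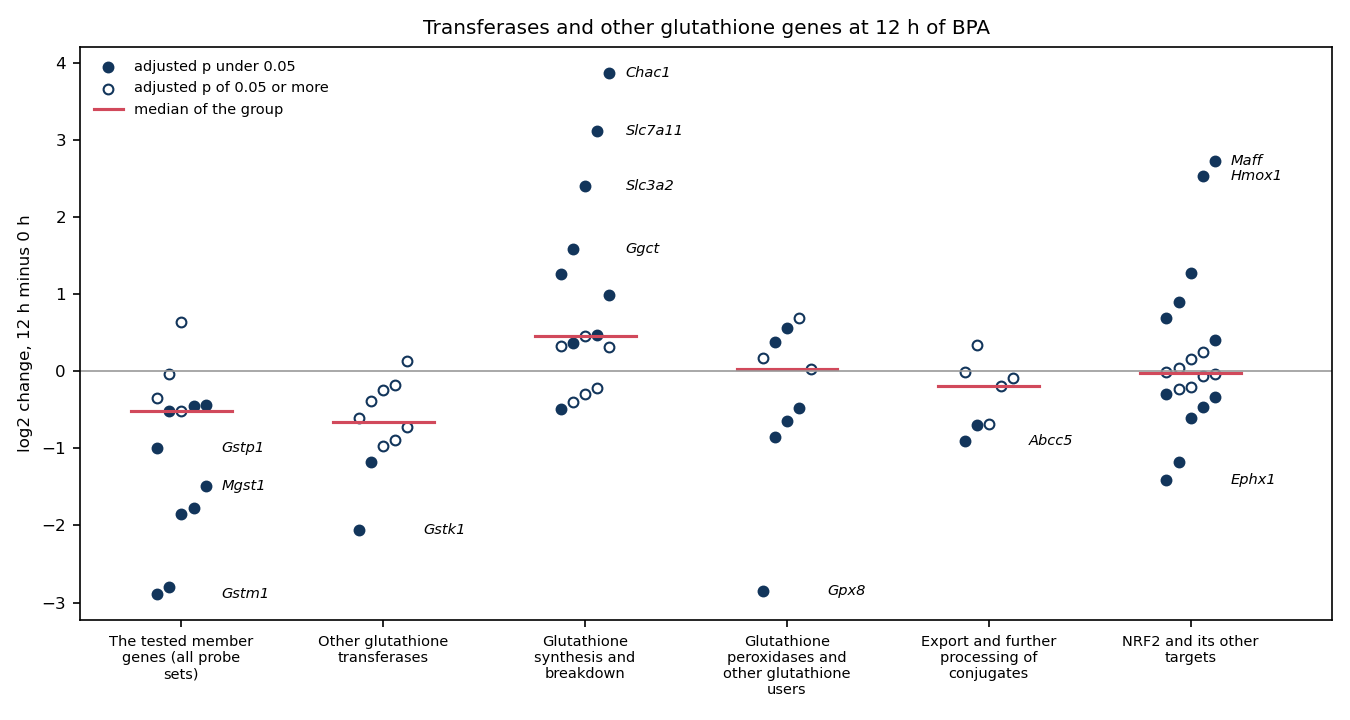
Log2 change at 12 h minus 0 h of the tested transferase probe sets (left) and of the genes of 5 lists, each gene by its brightest probe set; filled points have an adjusted p under 0.05 and red lines are medians. The transferase medians are -0.52 (13 probe sets, 4 of them of Gstm1) and -0.66 (10 further genes, several of them dim). That of synthesis and breakdown, a list that also holds amino acid transporters, is 0.45.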

How the data were processed

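RNA of 8 TTE3 samples was measured on 1-colour Affymetrix arrays, with groups read from the titles. The authors deposited 1 linear intensity per probe set and array; how probes were summarised is not given in the sources used. Each array had the same mean without the top and bottom 2% of probe sets (500.16 to 500.18), as the values show, and an overall change in RNA per cell is hidden by it. Of 22690 probe sets, 64 controls were left out. Names came from the platform annotation (20380 with 1 symbol, 691 with several, 1555 with none), and 20351 were updated through Entrez IDs to RefSeq.

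The fit used log2(signal + 7.9); 7.9 is the 10th percentile of all values. Probe sets with a mean above the 30th percentile were tested (15838 of 22626). One mean per time was fitted by limma (version 3.58.1, R 4.3.3; lmFit, eBayes with a trend) over 8 arrays, with degrees of freedom of 4 (residual) and 7.82 (prior). All tests were two-sided, with Benjamini-Hochberg adjustment over all probe sets tested. The fit was tested on simulated data for 12 h against 0 h, in 10 runs with 200 changed probe sets each. It found 63.5% of 2-fold and 91.3% of 4-fold changes, and 5.72% of its calls were false. A change of 2-fold or less that was not called can thus have been missed. The 12 h comparison of the data called 5293 probe sets, far more than 200, so the simulated shares need not hold for it. The arrays of a time correlated at 0.97 to 0.9823 (log2). Promoters came from RefSeq; the AP-1 letters were added after the sequences were seen.

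The members and gene lists were chosen with earlier results of these data known. The text names all 10 members, up to 5 called genes per list with the largest 12 h change, Gclc, Gclm, Gss, Gsr, Slc7a11, Chac1, Nfe2l2, Nqo1 and Hmox1, and 5 genes most like each of 2 probe sets; marker genes and the neighbours of Gstm1 and Gstp1 were named after their values were seen. Each listed gene was read by its brightest probe set. The alternatives tried were scaling to the same median, quantile normalization, offsets of 1.975 and 31.6, a filter at the 50th percentile or none, no trend, only the 2 groups compared, the replicate block, 1 probe set per gene and each array left out.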

Additional observations from a re-analysis of the deposited data

Results flagged for a closer look

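The change of Gstm1 from 0 h differed between 6 h and 3 h by a test of the difference itself: 6 h minus 3 h was -0.93 for probe set 1448330_at and -0.74 for 1416416_x_at (limma adjusted p = 0.0124 and 0.0232). In both, each 6 h array was below each 3 h array. Both calls were lost without the BPA 3 h replicate 1 (-0.76 and -0.70; adjusted p = 0.143 and 0.193), without the BPA 6 h replicate 1 (-0.83 and -0.72; adjusted p = 0.0627 and 0.0857), and for the second without the BPA 3 h replicate 2 (-0.78). No other transferase probe set differed between 6 h and 3 h at an adjusted p under 0.05.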

How the results depend on the processing

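Gstp1, Mgst1 1415897_a_at and the Gstm1 probe sets 1416416_x_at and 1448330_at were called lower at 3, 6 and 12 h in every setting that tested them. Leaving out 1 array each, probe sets called ran from 508 to 1738 at 3 h (1390 with all arrays), 1816 to 3483 at 6 h (3457), 3468 to 5725 at 12 h (5293), 24 to 194 for 6 h against 3 h (154) and 174 to 464 for 12 h against 6 h (471). Members called lower ran from 4 to 7, 5 to 8 and 5 to 9 at 3, 6 and 12 h, and 0 to 3 for 6 h against 3 h; the 5 at 12 h came without the BPA 0 h replicate 2. Without the trend, 670 were called at 3 h, 0 for 6 h against 3 h (0 members; limma, 1829 and 4 at an unadjusted p under 0.05) and 62 for 12 h against 6 h. With only the 2 groups compared, the calls were 90 for 6 h against 3 h (0 members, 5 at an unadjusted p under 0.05) and 127 for 12 h against 6 h, and 9 members were lower at 3 h. With arrays at the same median 7 members were lower at 3 h, and the calls of 12 h against 6 h were 186 higher and 229 lower, beside 90 and 381. With 1 probe set per gene, 2298 were called at 6 h, 3332 at 12 h and 97 for 6 h against 3 h (1 member). The replicate block gave 772 calls for 12 h against 6 h and, among the members, called Gsto1 1456036_x_at at 3, 6 and 12 h (adjusted p = 0.0106, 0.0078 and 0.0202) and Gstm2 and Gstm5 at 6 h (adjusted p = 0.0401 and 0.0392). The titles do not tell if same-numbered arrays are paired. Deviations of same-numbered arrays correlated at 0.007 to 0.119, low but all positive, which cannot settle it. The replicate block gave more calls than the fit without it in every comparison of times, with 772 beside 471 for 12 h against 6 h. Directions turned in uncalled changes alone: Gstm5 at 3 h (-0.191 to 0.063 leaving out 1 array, the highest without BPA 3 h replicate 1), Gsta3 1423437_at at 3 h (-0.237 to 0.692; -0.195 without BPA 0 h replicate 2 and the lowest without BPA 3 h replicate 2) and 6 h (-0.121 to 1.097, the lowest without BPA 6 h replicate 1), Gsto1 1416531_at at 12 h (-0.084 to 0.008, the highest without BPA 12 h replicate 2), and, for 12 h against 6 h, Gstm1 1448330_at (0.004 quantile, 0.018 same median, and -0.187 to 0.017 leaving out 1 array, the highest without BPA 6 h replicate 2) and Gstp1 (-0.020 quantile, and -0.077 to 0.133 leaving out 1 array, with -0.012 without BPA 6 h replicate 2 and the lowest without BPA 12 h replicate 1). Of the values for single probe sets under an alternative, 1156 stayed on their side of the threshold, called or not, with the same direction, 61 lost a call, 37 gained one and 11 turned direction. The cause was not tested. Calls of Gclc, Gsr, Cth, Gpx4, Glrx, Glrx2 and Acy1 were lost in some settings. Dim probe sets are limited by their spread: the SE was 0.58 for Gsta3 1423436_at and 0.11 for Gstp1.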

Other observations

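The 4 transferase probe sets too dim to be tested had signals with no steady course. Gstt1, the theta-class enzyme that acts on small halogenated compounds, read 33.4 and 22.4 at 0 h, 51.9 and 55.0 at 3 h, 9.20 and 19.4 at 6 h, and 42.6 and 13.4 at 12 h, so its 3 h arrays were above and its 6 h arrays below both 0 h arrays. Gsta4, the alpha-class enzyme for the lipid peroxidation product 4-hydroxynonenal, read between 3.90 and 23.9 on all 8 arrays. The second Mgst1 probe set, 1415898_at, read 35.7 and 38.5 at 3 h against 19.5 and 16.2 at 0 h, where the bright Mgst1 probe set was lower at 3 h. It read 14.9 and 18.4 at 6 h, and 12.0 and 2.7 at 12 h. Its 12 h arrays were below both 0 h arrays, as were those of the bright probe set. The second Mgst3 probe set, 1450563_at, read between 3.00 and 38.1.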
